A study of Homo sapiens with 6 samples.

Results

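The genes described here are 32 enzymes and enzyme subunits of the tricarboxylic acid (TCA) cycle and of the reactions that carry carbon into and out of it in mitochondria. They were picked by symbol for their function; the rule uses no measured value, although the list was drawn up with earlier results of these data known. All 32 were found among the 20297 genes of the deposited table. Expression was measured by sequencing of polyadenylated RNA from 22Rv1, an established human prostate cancer cell line, in 3 groups of 2 libraries. The groups were Drug_CN27, Drug_0120 (named 0120-0018 in the treatment protocol) and Vehicle, and the series presents both compounds as small molecules against the linker histone H1-10. Each compound was given at its own IC50, a dose set by its own potency; no concentration or duration is stated, so the exposures are not known to match. All groups share the same cell line, with no other allele or treatment named. Whether the 2 libraries of a group are separate cultures is not stated, and p-values therefore cover only the spread between these libraries, which may be technical.

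The TCA cycle joins acetyl-CoA to oxaloacetate as citrate and oxidises it stepwise in the mitochondrial matrix, passing electrons to the respiratory chain. Because intermediates leave the cycle for synthesis of lipids, nucleotides and amino acids, other enzymes refill it from pyruvate, malate, glutamate and aspartate. Normal prostate epithelium is known for accumulating and secreting citrate, whereas prostate cancer cells oxidise it.

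Values are TPM, transcripts per 1000000, a unit scaled for gene length, so that levels of different genes can be compared. TPM keeps no sequencing depth, which is therefore unknown. The genes of the table held less than the whole total, and the rest was 19.6% and 18.3% of TPM in Drug_CN27 libraries, 28.8% and 28.0% in Drug_0120 libraries and 19.3% and 18.1% in Vehicle libraries. All 10 markers of prostate epithelium passed the filter on low values. Of them, 4 were higher and 4 lower with Drug_CN27, against 43.7% and 26.6% of all tested genes. With Drug_0120, 2 were higher and 7 lower, against 36.0% and 45.5%. Among the 7 is KLK3, at 0.850 and 0.281 TPM with Drug_0120. It passed the filter only through Drug_CN27 and Vehicle libraries, so its call supports nothing. The 10 markers summed to between 2031 and 2071 TPM with Drug_CN27, 1224 and 1241 TPM with Drug_0120 and 1756 and 1809 TPM in Vehicle. In contrast, 5 leukocyte markers summed to between 1.26 and 2.96 TPM, with CD3E at 0 in every library, 5 fibroblast markers to between 6.54 and 12.1 TPM, and the 3 endothelial markers in the table to at most 0.0163 TPM, with CDH5 at 0 in every library. H1FX, the gene of H1-10, averaged 417 ± 22.3 TPM with Drug_CN27, 184 ± 10.7 TPM with Drug_0120 and 457 ± 9.44 TPM in Vehicle (SD, n = 2 each, as for every mean below); it fell with Drug_0120 (log2 change -1.31, limma adjusted p = 2.12e-07) and did not pass with Drug_CN27 (-0.13, limma adjusted p = 0.0918).

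Some of the 32 levels carry an uncertainty of assignment. In the GENCODE annotation, 14 of the 32 genes overlap an exon of a gene on the opposite strand and 3 overlap one on their own strand, and 11 have named pseudogenes; strand use in counting is not stated, so reads of such pairs may be split. The 12 genes with none of these are IDH3B, OGDH, SUCLG1, SDHB, MDH2, ACO1, IDH2, PCK2, ME1, ME3, GPT2 and ALDH18A1.

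The first question was how far the 32 genes moved with each compound. With Drug_CN27 they went both ways: 11 were higher and 13 lower than in Vehicle at a limma adjusted p under 0.05, and 8 did not pass. The share of all 13606 tested genes called was 43.7% higher and 26.6% lower (70.4% in either direction), and the share of the 32 was 34.4% higher and 40.6% lower. With Drug_0120 they went mostly down: 2 were higher and 26 lower than in Vehicle, and 4 did not pass. There the background was 36.0% of tested genes higher and 45.5% lower (81.5% in either direction), against 6.25% and 81.2% of the 32. All 32 genes passed the filter of at least 1 TPM in at least 2 libraries.

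The median log2 change of the 32 genes was -0.07 with Drug_CN27 and -0.49 with Drug_0120, each against Vehicle. The median of all tested genes was 0.15 with Drug_CN27 and -0.10 with Drug_0120, so relative to it the 32 genes lay at -0.22 and -0.39. With median-of-ratios scaling the relative medians were -0.23 and -0.37. The 2 comparisons share the Vehicle libraries, so their values are given side by side and not as independent results. With Drug_CN27, 62.1% of the calls over all genes were higher as deposited and 48.4% after median-of-ratios scaling, 52.4% after quantile normalization and 50.8% after the GC correction. Among the 32 genes, median-of-ratios scaling left 8 higher calls and 17 lower ones. The larger TPM share outside the table in Drug_0120 libraries and the lower sum of epithelial markers there stand beside every fall reported for that compound; their part was not tested. In bulk RNA, fewer cells that express a gene and less of its RNA per cell cannot be told apart.

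**Figure D1:**
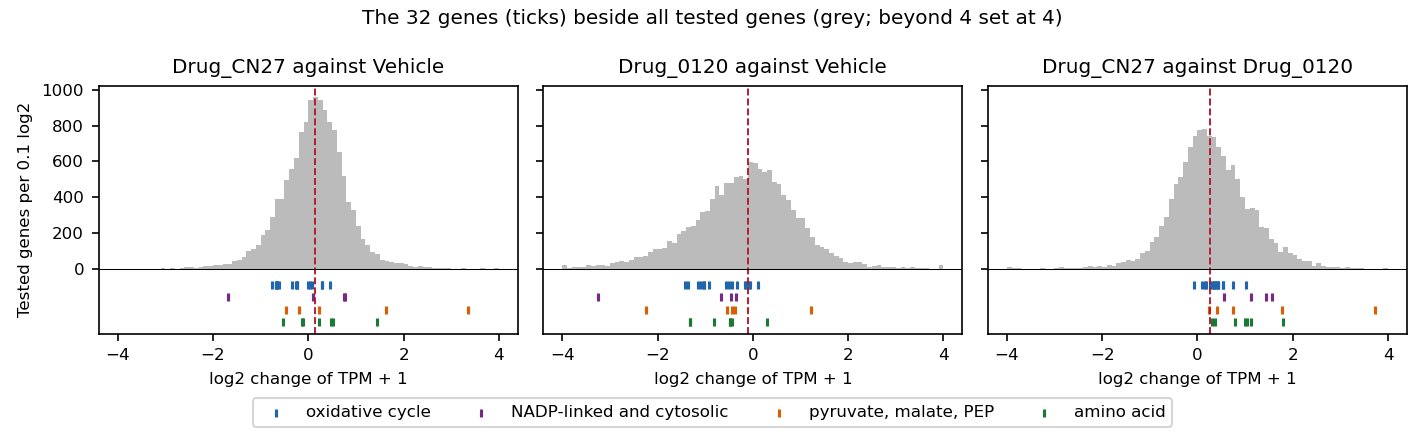
Histograms of the log2 change of all 13606 tested genes in the 3 comparisons (x axis, log2 of TPM + 1; y axis, genes per bin of 0.1), with the median of all genes as a dashed line and the 32 genes as ticks coloured by role. With Drug_0120 against Vehicle the ticks of the 16 oxidative cycle genes lie between -1.43 and 0.12, mostly left of the median of -0.10.

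Most enzymes that run the oxidative cycle in the matrix fell with each compound, and their summed level was lowest with Drug_0120. Of 16 such genes, 3 were higher and 10 lower with Drug_CN27 (median log2 change -0.24), against 43.7% and 26.6% of all tested genes. With Drug_0120, none was higher and 12 were lower (median -0.53), against 36.0% and 45.5%. Summed over the 16 genes, expression was 2340 ± 17.5 TPM with Drug_CN27, 1787 ± 20.0 TPM with Drug_0120 and 3039 ± 15.0 TPM in Vehicle. As a share of the TPM in the table, which takes out the difference outside it, this was 0.289% ± 0.000892, 0.250% ± 0.000693 and 0.374% ± 0.00197 in the same order of groups. No library of one group overlapped another group in these sums.

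**Figure D2:**
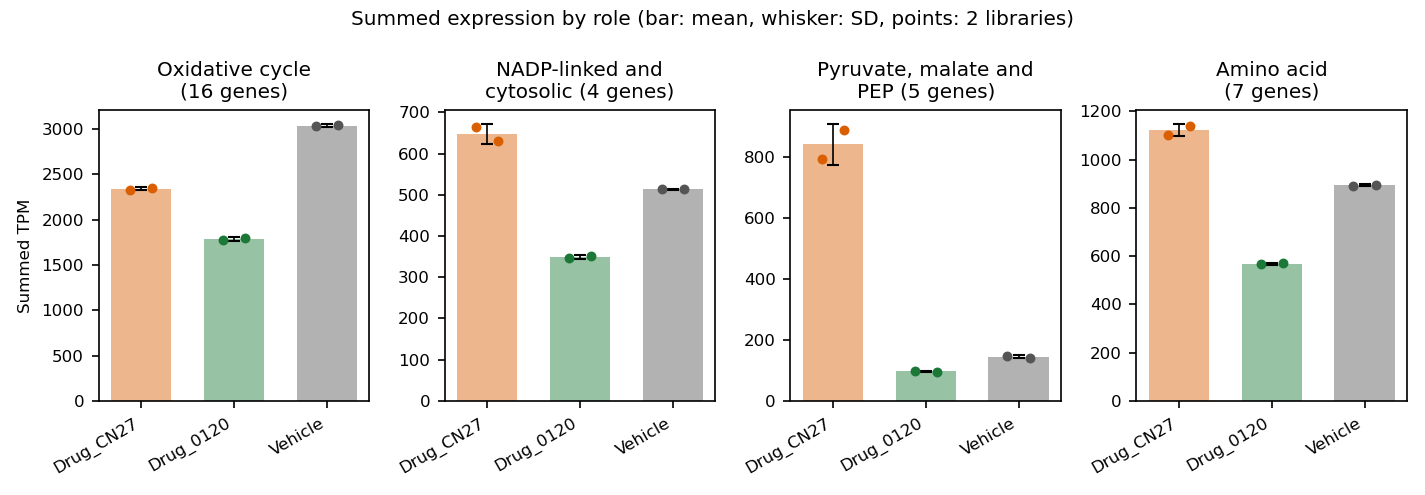
Summed TPM of the genes of each role in Drug_CN27, Drug_0120 and Vehicle libraries (bars, means; whiskers, SD; points, the 2 libraries). Drug_0120 libraries are lowest in all 4 roles; Drug_CN27 libraries lie below Vehicle for the oxidative cycle and above it for the other roles.

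CS (ENSG00000062485.18_4, chromosome 12), citrate synthase, makes citrate at the entry of the cycle. It had 357 and 350.3 TPM in Drug_CN27 libraries, 176 and 174 TPM in Drug_0120 libraries and 453 and 444 TPM in Vehicle libraries. The 3 groups did not overlap, and its log2 change was -0.34 ± 0.05 (SE) with Drug_CN27 (limma adjusted p = 0.000359) and -1.35 ± 0.05 with Drug_0120 (limma adjusted p = 5.08e-08).

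The NAD-linked isocitrate dehydrogenase, a complex of 3 kinds of subunit, did not change evenly. IDH3B, a regulatory subunit, had 109 and 123 TPM with Drug_CN27, 87.1 and 90.4 TPM with Drug_0120 and 195 and 199 TPM in Vehicle, and fell with both compounds (log2 changes -0.76 ± 0.07 and -1.14 ± 0.07). IDH3A, the catalytic subunit, had 52.1 and 49.8 TPM with Drug_CN27, 35.1 and 34.1 TPM with Drug_0120 and 53.4 and 49.3 TPM in Vehicle, so that Drug_CN27 and Vehicle libraries overlapped and Drug_0120 libraries stood lower (-0.56 ± 0.07). With Drug_CN27, IDH3A differed by -0.01 as deposited and passed as lower with median-of-ratios scaling (-0.19, adjusted p = 0.0279) and with the GC correction (-0.25, adjusted p = 0.00123). IDH3G, the other regulatory subunit, averaged 86.7 ± 3.22 TPM with Drug_CN27, 64.9 ± 0.818 TPM with Drug_0120 and 81.9 ± 4.68 TPM in Vehicle. With Drug_CN27 its libraries overlapped Vehicle, and the difference of 0.08 ± 0.06 did not pass; it was -0.0945 with median-of-ratios scaling and passed as higher with the GC correction (0.12, adjusted p = 0.0376). It fell with Drug_0120 (-0.33 ± 0.06), but with a correction for transcript GC content that change was 0.15 and passed as higher (limma adjusted p = 0.0123).

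In the oxoglutarate dehydrogenase complex, the first component fell with each compound and no other component passed as lower on the deposited scale. OGDH, the decarboxylase, had 89.4 and 92.8 TPM with Drug_CN27, 70.03 and 71.8 TPM with Drug_0120 and 149.98 and 140.4 TPM in Vehicle (log2 changes -0.67 ± 0.06 and -1.02 ± 0.06). DLST, the succinyltransferase core, had 165 and 167 TPM with Drug_CN27, 149 and 146 TPM with Drug_0120 and 134 and 138 TPM in Vehicle. DLST rose with Drug_CN27 (0.28 ± 0.05, limma adjusted p = 0.00141), a call lost with median-of-ratios scaling (adjusted p = 0.151). With Drug_0120 its difference was 0.12 ± 0.05 (limma adjusted p = 0.0674), and without Drug_CN27 replicate 1 or 2 it passed as higher (limma adjusted p = 0.047 and 0.0471). DLST also passed as higher with Drug_0120 at 0.24 with median-of-ratios scaling, 0.40 with quantile normalization, 0.30 with equal table sums and 0.20 with the GC correction (adjusted p from 0.0001 to 0.00463), with no filter (0.0458) and in a fit of only the compared groups (0.0469). DLD, the dihydrolipoamide dehydrogenase shared with pyruvate dehydrogenase, overlapped across all 3 groups, at 85.5 ± 7.37, 80.05 ± 2.35 and 83.7 ± 4.80 TPM in Drug_CN27, Drug_0120 and Vehicle libraries. Its difference from Vehicle was 0.03 (95% interval -0.14 to 0.20) with Drug_CN27 and -0.06 (95% interval -0.24 to 0.11) with Drug_0120. With the GC correction DLD passed as lower with each compound (-0.25, adjusted p = 0.000609, and -0.15, adjusted p = 0.00574), whereas quantile normalization gave 0.15 with Drug_0120.

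Succinyl-CoA synthetase has a shared alpha subunit and a choice of beta subunits, and its beta subunits parted. SUCLG2, the beta subunit of the GTP-forming enzyme, had 39.8 and 35.4 TPM with Drug_CN27, 28.9 and 26.4 TPM with Drug_0120 and 62.1 and 57.4 TPM in Vehicle (-0.66 ± 0.08 and -1.09 ± 0.08). SUCLA2, the beta subunit of the ADP-forming enzyme, had 72.0 and 67.8 TPM with Drug_CN27, 49.95 and 46.3 TPM with Drug_0120 and 53.1 and 48.1 TPM in Vehicle. It rose with Drug_CN27 (0.46 ± 0.07, limma adjusted p = 0.000628) and overlapped Vehicle with Drug_0120 (-0.07, 95% interval -0.24 to 0.10), where it passed as lower with the GC correction (-0.15, adjusted p = 0.0145) but was 0.11 with equal table sums. SUCLG1, the alpha subunit, averaged 169 ± 1.29 TPM with Drug_CN27, 178 ± 3.48 TPM with Drug_0120 and 198 ± 0.664 TPM in Vehicle. Its fall with Drug_CN27 was -0.23 ± 0.05. Its fall with Drug_0120 (-0.16 ± 0.05, limma adjusted p = 0.0197) was lost without any one of the Drug_0120 or Vehicle libraries (limma adjusted p = 0.0601 and 0.130 without Drug_0120 replicates 1 and 2, 0.0963 and 0.110 without Vehicle replicates 1 and 2) and turned to 0.16 with quantile normalization, passing there as higher (adjusted p = 0.0195).

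Succinate dehydrogenase, which is also complex II of the respiratory chain, likewise moved unevenly across its subunits. SDHB, the iron-sulfur subunit, had 148 and 150.045 TPM with Drug_CN27, 109 and 126 TPM with Drug_0120 and 235 and 245 TPM in Vehicle (-0.68 ± 0.07 and -1.03 ± 0.07). SDHA, the flavoprotein, averaged 159 ± 2.97 TPM with Drug_CN27, 139.9 ± 6.32 TPM with Drug_0120 and 189 ± 1.39 TPM in Vehicle (-0.25 ± 0.06 and -0.43 ± 0.06). The membrane anchor SDHD averaged 151 ± 0.129, 126 ± 6.29 and 177 ± 4.33 TPM in Drug_CN27, Drug_0120 and Vehicle libraries (-0.23 ± 0.06 and -0.49 ± 0.06), and the first of these calls was lost without Vehicle replicate 2 (limma adjusted p = 0.0615). The other anchor, SDHC, averaged 49.2 ± 3.23, 36.2 ± 0.572 and 40.3 ± 0.578 TPM in those groups. SDHC rose with Drug_CN27 (0.28 ± 0.07), a call lost with median-of-ratios scaling (adjusted p = 0.190) and with the GC correction (adjusted p = 0.119). With Drug_0120 it did not pass (-0.15 ± 0.07, limma adjusted p = 0.0672). It passed as lower without Drug_CN27 replicate 1 or 2 (limma adjusted p = 0.0352 and 0.0349), in a fit of only the compared groups (0.0359) and with the GC correction (-0.17, adjusted p = 0.0108), but was 0.0252 with equal table sums.

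The last enzymes of the cycle, fumarase and mitochondrial malate dehydrogenase, fell clearly. FH, fumarase, had 171 and 161 TPM with Drug_CN27, 94.9 and 101 TPM with Drug_0120 and 264 and 267 TPM in Vehicle (-0.68 ± 0.06 and -1.43 ± 0.06). MDH2, which regenerates oxaloacetate and had the highest level of the 32 genes in Vehicle, had 419 and 459 TPM with Drug_CN27, 352 and 356 TPM with Drug_0120 and 660.2 and 689 TPM in Vehicle (-0.62 ± 0.06 and -0.93 ± 0.06). In both genes the 3 groups did not overlap.

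**Figure D3:**
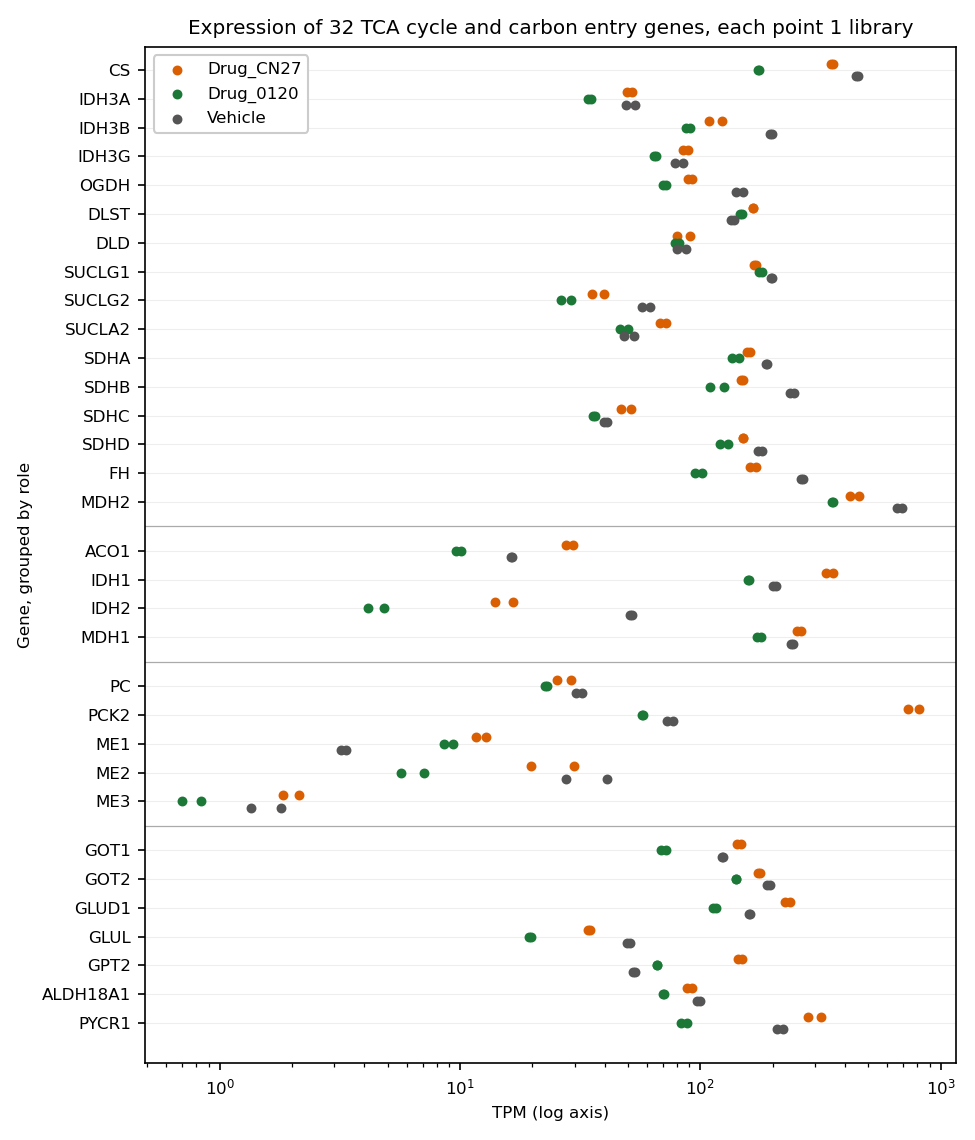
TPM of each of the 32 genes (x axis, log scale; rows, genes grouped by role), with each point 1 library and colours for Drug_CN27, Drug_0120 and Vehicle. PCK2 reaches 735 and 816 TPM with Drug_CN27 against 72.5 and 77.0 TPM in Vehicle, and IDH2 lies at 4.16 and 4.85 TPM with Drug_0120 against 51.9 and 51.0 TPM in Vehicle.

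To show what regulatory letters precede genes that fell together, promoters from RefSeq (GRCh38.p14), 250 bases before to 50 after a transcription start, were searched on both strands for 5 motifs. The table held windows for 28 of the 32 genes. In 18 of these 28 none of the 5 motifs was found, and CS, IDH2, FH, SUCLG2 and GLUL, which fell with both compounds, were among them. The motif of ETS family factors such as GABPA, CCGGAAG, was in windows of 7 of these 28 genes (IDH3B, IDH3G, DLST, SDHB, SDHD, MDH2 and ME2) and in windows of 12.2% of all 27305 genes of that table. The site of nuclear respiratory factor 1 and that of estrogen-related receptors, TNAAGGTCA, were each in the window of SDHD, and in windows of 1.52% and 1.17% of all genes. The E-box CACGTG was in windows of ME3 and ALDH18A1 and of 8.77% of all genes. The 250 bases before the start of IDH3B (chr20:2664217-2664466, minus strand), SDHB (chr1:17054033-17054282, minus strand), SDHD (chr11:112086623-112086872, plus strand) and MDH2 (chr7:76047856-76048105, plus strand) are printed because, of the genes with a window, these fell with both compounds and hold a motif before the start. They read 5′ to 3′ on the gene's strand, with motif matches in capitals.
IDH3B: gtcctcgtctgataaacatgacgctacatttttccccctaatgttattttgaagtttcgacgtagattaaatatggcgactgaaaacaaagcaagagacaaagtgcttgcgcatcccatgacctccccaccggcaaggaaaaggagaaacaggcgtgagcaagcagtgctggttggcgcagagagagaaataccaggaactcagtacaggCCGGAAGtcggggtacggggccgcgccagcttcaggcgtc
SDHB: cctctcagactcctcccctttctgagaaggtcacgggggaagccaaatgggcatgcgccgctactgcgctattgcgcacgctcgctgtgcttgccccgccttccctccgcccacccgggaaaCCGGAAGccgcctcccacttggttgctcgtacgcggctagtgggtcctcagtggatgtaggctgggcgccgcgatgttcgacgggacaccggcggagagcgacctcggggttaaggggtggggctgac
SDHD: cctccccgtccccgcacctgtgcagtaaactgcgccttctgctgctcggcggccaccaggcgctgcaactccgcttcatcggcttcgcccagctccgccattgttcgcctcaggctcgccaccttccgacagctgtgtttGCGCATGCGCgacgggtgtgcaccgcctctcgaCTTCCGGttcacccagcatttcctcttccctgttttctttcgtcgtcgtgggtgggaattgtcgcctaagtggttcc
MDH2: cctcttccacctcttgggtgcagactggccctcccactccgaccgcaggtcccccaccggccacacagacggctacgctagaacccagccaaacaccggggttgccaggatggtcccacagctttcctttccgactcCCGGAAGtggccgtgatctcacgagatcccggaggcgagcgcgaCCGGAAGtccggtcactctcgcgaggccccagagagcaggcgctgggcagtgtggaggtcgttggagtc
The capitals mark an ETS motif in IDH3B and in SDHB, the nuclear respiratory factor 1 site followed by an ETS motif in SDHD, and a pair of ETS motifs in MDH2. The motifs do not overlap each other, and the estrogen-related receptor motif of SDHD lies after the start, outside the printed stretch. DLST, which holds an ETS motif too, did not fall. These matches describe letters only, and binding was not measured.

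The cytosolic and NADP-linked counterparts of cycle enzymes divided with Drug_CN27 and fell with Drug_0120. Of 4 such genes, 2 were higher and 1 lower with Drug_CN27, against 43.7% and 26.6% of all tested genes. With Drug_0120 all 4 were lower, against 45.5% of all tested genes. IDH2 (ENSG00000182054.9_2, chromosome 15), the mitochondrial NADP-linked isocitrate dehydrogenase, had 13.98 and 16.6 TPM with Drug_CN27, 4.16 and 4.85 TPM with Drug_0120 and 51.9 and 51.0 TPM in Vehicle. Its log2 changes, -1.69 ± 0.10 with Drug_CN27 (limma adjusted p = 2.98e-06) and -3.25 ± 0.10 with Drug_0120 (limma adjusted p = 2.55e-08), were the lowest of the 32 genes in both comparisons, and the second was -2.86 with the GC correction.

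IDH1, the cytosolic and peroxisomal enzyme of the same reaction, moved otherwise. It had 358 and 335 TPM with Drug_CN27, 160 and 158 TPM with Drug_0120 and 207 and 202 TPM in Vehicle, which is higher with Drug_CN27 (0.76 ± 0.06) and lower with Drug_0120 (-0.36 ± 0.06); the second call was lost with quantile normalization (-0.06, adjusted p = 0.416). ACO1, the cytosolic aconitase that also acts as an iron-regulatory protein, had 29.7 and 27.5 TPM with Drug_CN27, 10.1 and 9.66 TPM with Drug_0120 and 16.5 and 16.3 TPM in Vehicle (0.77 ± 0.08 and -0.67 ± 0.08). MDH1, the cytosolic malate dehydrogenase, averaged 257 ± 7.34 TPM with Drug_CN27, 175 ± 5.33 TPM with Drug_0120 and 242 ± 3.73 TPM in Vehicle. It fell with Drug_0120 (-0.46 ± 0.05), and its difference with Drug_CN27 was 0.09 (95% interval -0.03 to 0.21), but with the GC correction it passed as lower (-0.18, adjusted p = 0.0314).

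Among the enzymes that exchange pyruvate, malate and phosphoenolpyruvate with the cycle, PCK2 dominated with Drug_CN27. Of these 5 genes, 2 were higher and none lower with Drug_CN27, against 43.7% and 26.6% of all tested genes. With Drug_0120, 1 was higher and 4 lower, against 36.0% and 45.5%. PCK2 (ENSG00000100889.11_2, chromosome 14), the mitochondrial phosphoenolpyruvate carboxykinase, had 735 and 816 TPM with Drug_CN27, 58.0 and 57.2 TPM with Drug_0120 and 72.5 and 77.0 TPM in Vehicle. Its rise with Drug_CN27 was 3.36 ± 0.07 log2 (limma adjusted p = 4e-08), with a range of 3.18 to 3.43 over the alternatives, and it then stood above every other gene of the 32. Its fall with Drug_0120 (-0.37 ± 0.07, limma adjusted p = 0.000773) turned to 0.12 with the GC correction, passing there as higher (limma adjusted p = 0.0323). None of the 5 motifs was in the promoter window of PCK2.

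The malic enzymes, which turn malate into pyruvate, also parted. ME1, the cytosolic NADP-linked form, had 12.9 and 11.7 TPM with Drug_CN27, 8.60 and 9.38 TPM with Drug_0120 and 3.21 and 3.35 TPM in Vehicle, and rose with both compounds (1.63 ± 0.10 and 1.22 ± 0.10). ME2, the mitochondrial form linked to NAD, had 19.8 and 29.8 TPM with Drug_CN27, 7.09 and 5.67 TPM with Drug_0120 and 41.1 and 27.7 TPM in Vehicle. Its replicates lay far apart, so Drug_CN27 and Vehicle libraries overlapped and that difference did not pass (-0.46, 95% interval -0.96 to 0.04), whereas ME2 fell with Drug_0120 (-2.24 ± 0.22). Without Vehicle replicate 2 or Drug_CN27 replicate 2, ME2 passed as lower with Drug_CN27 (limma adjusted p = 0.0108 and 0.0261), as it did with median-of-ratios scaling (-0.63, adjusted p = 0.0293), quantile normalization (-0.61, adjusted p = 0.0381) and the GC correction (-0.74, adjusted p = 0.0267).

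ME3, the mitochondrial NADP-linked form, was near the filter at 1.84 and 2.14 TPM with Drug_CN27, 0.699 and 0.833 TPM with Drug_0120 and 1.35 and 1.81 TPM in Vehicle. Its difference with Drug_CN27 was 0.22 ± 0.12 (limma adjusted p = 0.149). It was called lower with Drug_0120 (-0.54 ± 0.12), a call lost with the GC correction (-0.08, adjusted p = 0.499). Both Drug_0120 libraries lay under 1 TPM, so ME3 entered the test only through the groups where it is higher; its call is included in the counts of the 32 genes but supports nothing. PC, pyruvate carboxylase, which refills oxaloacetate, averaged 27.2 ± 2.64 TPM with Drug_CN27, 22.8 ± 0.383 TPM with Drug_0120 and 31.3 ± 1.18 TPM in Vehicle. PC fell with Drug_0120 (-0.44 ± 0.08; 0.04 with the GC correction) and did not pass with Drug_CN27 (-0.20, 95% interval -0.39 to -0.01, limma adjusted p = 0.0575). PC passed as lower with Drug_CN27 without Drug_CN27 replicate 2 (limma adjusted p = 0.0146), with median-of-ratios scaling (-0.37, adjusted p = 0.00519), with quantile normalization (-0.33, adjusted p = 0.0108) and with the GC correction (-0.17, adjusted p = 0.0266).

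Enzymes that link the cycle to glutamate, alanine, aspartate and proline were divided with Drug_CN27 and mostly lower with Drug_0120. Of 7 such genes, 4 were higher and 2 lower with Drug_CN27 (against 43.7% and 26.6% of all tested genes), and 1 was higher and 6 lower with Drug_0120 (against 36.0% and 45.5%). Their summed expression was 1121 ± 25.5 TPM with Drug_CN27, 567 ± 3.15 TPM with Drug_0120 and 893 ± 4.33 TPM in Vehicle. GPT2 (ENSG00000166123.13_3, chromosome 16), the mitochondrial alanine aminotransferase, had 143 and 149 TPM with Drug_CN27, 66.1 and 65.9 TPM with Drug_0120 and 52.7 and 53.6 TPM in Vehicle. It rose with both compounds (1.44 ± 0.06 and 0.31 ± 0.06).

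PYCR1, the mitochondrial reductase that completes proline synthesis, had 280.0 and 317 TPM with Drug_CN27, 83.02 and 88.1 TPM with Drug_0120 and 209 and 221 TPM in Vehicle (0.47 ± 0.07 and -1.32 ± 0.07; the second was -0.75 with the GC correction). ALDH18A1, which makes the precursor that PYCR1 reduces, averaged 90.5 ± 3.22 TPM with Drug_CN27, 70.1 ± 0.443 TPM with Drug_0120 and 98.5 ± 2.51 TPM in Vehicle. ALDH18A1 fell with Drug_0120 (-0.48 ± 0.06) and did not pass with Drug_CN27 (-0.12, 95% interval -0.25 to 0.01; limma adjusted p = 0.0925). It passed as lower with Drug_CN27 with median-of-ratios scaling (-0.30, adjusted p = 0.00254) and with the GC correction (-0.27, adjusted p = 0.000888). The difference between PYCR1 and ALDH18A1 was not tested.

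GLUD1, glutamate dehydrogenase, had 237 and 225 TPM with Drug_CN27, 116 and 113 TPM with Drug_0120 and 160.2 and 161 TPM in Vehicle (0.52 ± 0.05 and -0.48 ± 0.05). GLUL, glutamine synthetase, had 34.8 and 34.0 TPM with Drug_CN27, 19.8 and 19.3 TPM with Drug_0120 and 50.9 and 49.4 TPM in Vehicle, and fell with both (-0.53 ± 0.06 and -1.31 ± 0.06). In GLUD1 the Drug_CN27 libraries lay above Vehicle, in GLUL below it, and in both genes the Drug_0120 libraries were lowest.

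GOT1, the cytosolic aspartate aminotransferase, had 143 and 147 TPM with Drug_CN27, 68.8 and 71.8 TPM with Drug_0120 and 123 and 125 TPM in Vehicle. It rose with Drug_CN27 (0.23 ± 0.06) and fell with Drug_0120 (-0.81 ± 0.06); the rise was lost with median-of-ratios scaling (0.05, adjusted p = 0.521) and with the GC correction (0.07, adjusted p = 0.200). GOT2, its mitochondrial counterpart, averaged 175 ± 2.63 TPM with Drug_CN27, 141 ± 0.151 TPM with Drug_0120 and 192 ± 3.24 TPM in Vehicle. GOT2 fell with Drug_0120 (-0.44 ± 0.05). Its fall with Drug_CN27 (-0.13 ± 0.05, limma adjusted p = 0.0468) was lost with quantile normalization (adjusted p = 0.0558) and with equal table sums (0.0567). It was lost in a fit of only the compared groups too (0.0903). The call also went without either Vehicle library, either Drug_0120 library or Drug_CN27 replicate 2, with changes of -0.15 to -0.12.

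GOT1 is shown with its promoter because, of the 28 genes with a window, it alone held the C/EBP-ATF response element bound by ATF4, searched as TGATGNAA; windows of 4.46% of all genes held it. The 250 bases before its start (RefSeq, GRCh38.p14, chr10:99430625-99430874, minus strand) read 5′ to 3′ on the gene's strand as follows, with the match, on the opposite strand, in capitals.
GOT1: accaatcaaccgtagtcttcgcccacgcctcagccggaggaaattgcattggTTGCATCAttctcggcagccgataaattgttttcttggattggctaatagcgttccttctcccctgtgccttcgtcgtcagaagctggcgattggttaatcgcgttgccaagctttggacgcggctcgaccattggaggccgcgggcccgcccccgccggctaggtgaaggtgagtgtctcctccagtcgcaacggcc
The match begins 198 bases before the start.

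**Figure D4:**
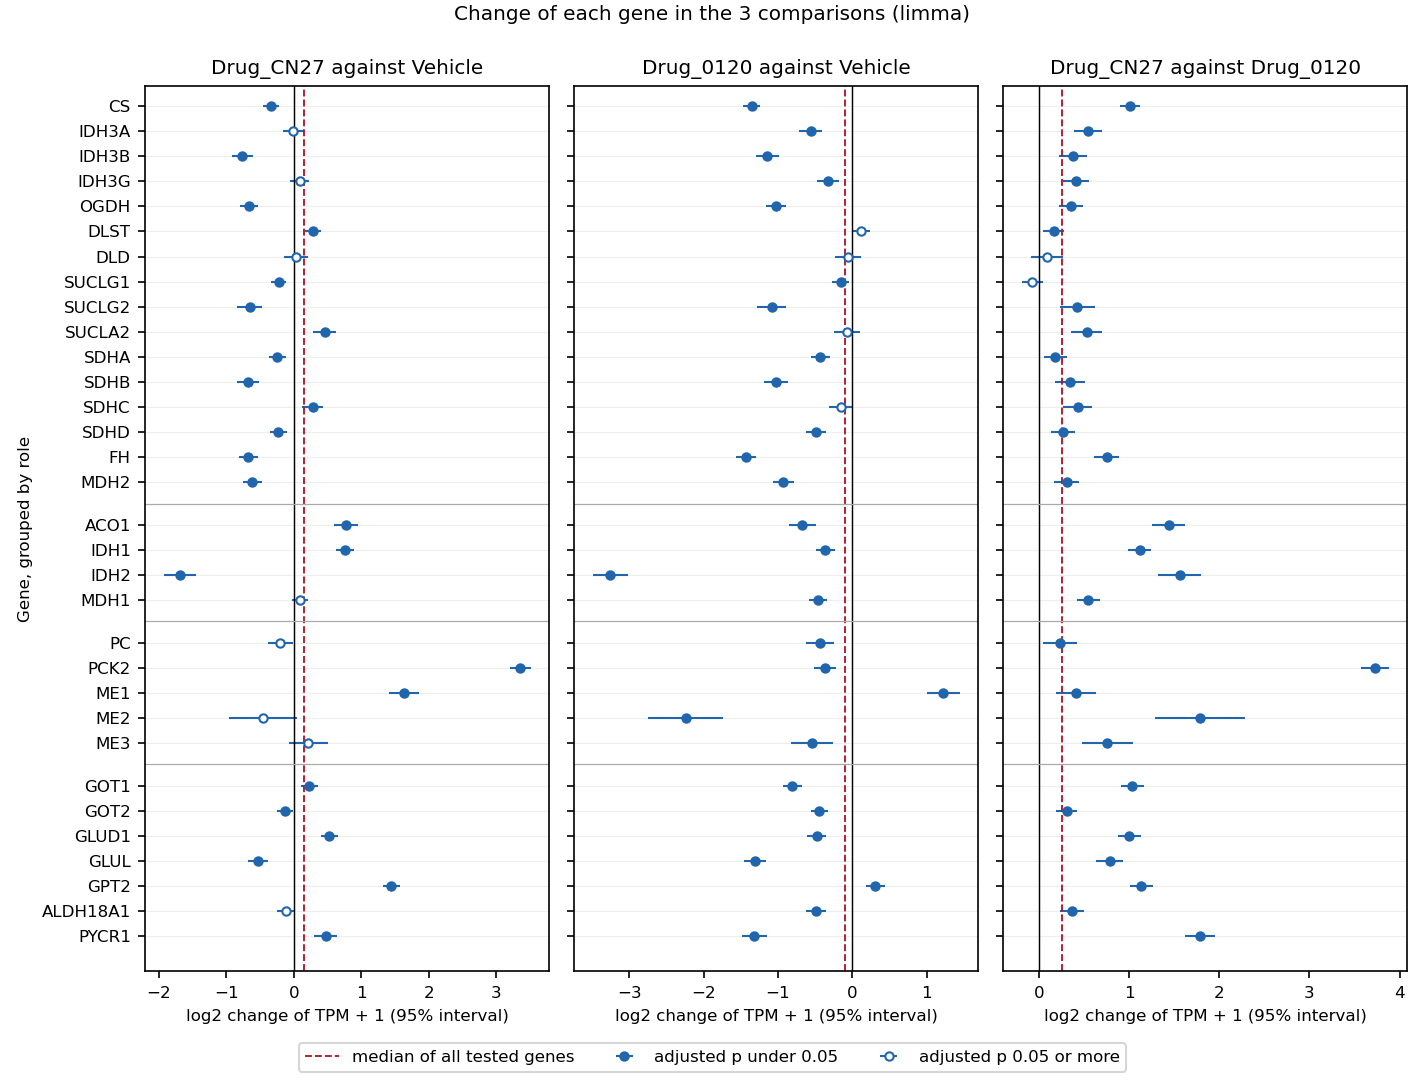
Log2 change of TPM + 1 of each of the 32 genes in the 3 comparisons (points, estimates from limma; lines, 95% intervals; filled points, adjusted p under 0.05; dashed line, median of all tested genes). With Drug_CN27 against Vehicle the points fall on both sides of 0, from -1.69 for IDH2 to 3.36 for PCK2, and with Drug_0120 against Vehicle all but ME1, GPT2 and DLST lie below 0.

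The compounds were then compared directly, with the limit that their exposures are not known to match. The log2 differences involve no Vehicle library, but the spread behind the SE and p-values, and the filter, use all 3 groups. Of the 32 genes, 30 were higher with Drug_CN27 than with Drug_0120, none was lower, and DLD and SUCLG1 did not pass. Of all tested genes, 51.7% were higher and 23.5% lower (75.2% in either direction). The median log2 difference was 0.48 for the 32 genes and 0.26 for all tested genes, so that much of the first value is shared by the whole table. After median-of-ratios scaling the counts among the 32 were 16 higher and 2 lower, after quantile normalization 22 and 2, after equal table sums 25 and 1, and after the GC correction 20 and 3. Over all genes, 68.7% of the calls were higher as deposited, 49.3% with median-of-ratios scaling, 49.6% with quantile normalization, 57.7% with equal table sums and 48.8% with the GC correction.

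A set of 16 genes was called higher with Drug_CN27 than with Drug_0120 under all 14 alternatives, leaving out libraries included. These were, beside ME3, CS, IDH3A, SUCLA2, FH, ACO1, IDH1, IDH2, MDH1, PCK2, ME2, GOT1, GLUD1, GLUL, GPT2 and PYCR1. The largest difference was in PCK2 (3.73 ± 0.07 log2, limma adjusted p = 8.75e-09), followed by PYCR1 (1.79 ± 0.07), ME2 (1.78 ± 0.22), IDH2 (1.56 ± 0.10) and ACO1 (1.44 ± 0.08). CS differed by 1.01 ± 0.05 and FH by 0.75 ± 0.06. Of all tested genes, 51.7% were called higher as deposited and 37.5% with median-of-ratios scaling. The share called higher under all 14 alternatives was not computed, so the 16 genes have no such background beside them. By role, the median difference was 0.37 for the oxidative cycle, 1.28 for the NADP-linked and cytosolic genes and 1.004 for the amino acid genes. That of the 5 pyruvate, malate and phosphoenolpyruvate genes, 0.76, is the value of ME3 itself and supports nothing.

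With another scaling or the GC correction the difference turned round in IDH3G (0.41 as deposited), DLST, SDHA, SDHD, MDH2 and PC, and in DLD, which had not passed. PC then passed as lower with the GC correction (-0.20, limma adjusted p = 0.0105), and DLST with quantile normalization (-0.13, limma adjusted p = 0.0417). DLD passed as lower with median-of-ratios scaling (-0.21, limma adjusted p = 0.0243) and with the GC correction (-0.10, limma adjusted p = 0.0382). DLST (0.16 ± 0.05) lost its call without Drug_0120 replicate 1 (limma adjusted p = 0.0663) or 2 (0.119), SDHA (0.18 ± 0.06) without Drug_0120 replicate 1 (0.141), and PC (0.24 ± 0.08) without Drug_0120 replicate 1 (0.0702) or 2 (0.108) or Drug_CN27 replicate 2 (0.145). SUCLG1 did not pass as deposited (-0.07, 95% interval -0.19 to 0.05) and was lower with Drug_CN27 than with Drug_0120 under all 4 of these alternatives, at -0.25 to -0.38.

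Because a ratio of 2 genes within a library does not depend on the library's total, 6 pairs of related enzymes were also followed as ratios of TPM. With 2 libraries a group, an exact permutation test cannot go below p = 0.333, so these are descriptions. The IDH1 to IDH2 ratio was 25.6 and 20.2 with Drug_CN27, 38.4 and 32.6 with Drug_0120 and 3.997 and 3.95 in Vehicle. The SUCLG2 to SUCLA2 ratio was 0.552 and 0.521 with Drug_CN27, 0.578 and 0.570 with Drug_0120 and 1.17 and 1.19 in Vehicle. In both pairs each compound's libraries lay on the same side of Vehicle, without overlap: the cytosolic form gained weight over the mitochondrial one for NADP-linked isocitrate dehydrogenase, and the ADP-forming beta subunit over the GTP-forming one.

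The MDH1 to MDH2 ratio was 0.627 and 0.549 with Drug_CN27, 0.487 and 0.504 with Drug_0120 and 0.362 and 0.355 in Vehicle, with each compound again above Vehicle. This ratio depended on the processing: its log2 difference from Vehicle was 0.71 with Drug_CN27 and 0.47 with Drug_0120 as deposited, and 0.49 and 0.13 with the GC correction. For the aspartate aminotransferases the compounds lay on opposite sides: GOT1 to GOT2 was 0.805 and 0.850 with Drug_CN27, 0.487 and 0.508 with Drug_0120 and 0.632 and 0.656 in Vehicle. ME1 to ME2 was 0.653 and 0.392 with Drug_CN27, 1.21 and 1.66 with Drug_0120 and 0.0780 and 0.121 in Vehicle. Within succinate dehydrogenase, SDHB to SDHA was 0.946 and 0.931 with Drug_CN27, 0.808 and 0.871 with Drug_0120 and 1.24 and 1.30 in Vehicle. In all 6 pairs neither compound's libraries overlapped Vehicle. How often other pairs of genes separate in this way was not computed. Of all tested genes, 70.4% with Drug_CN27 and 81.5% with Drug_0120 were called against Vehicle in either direction.

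**Figure D5:**
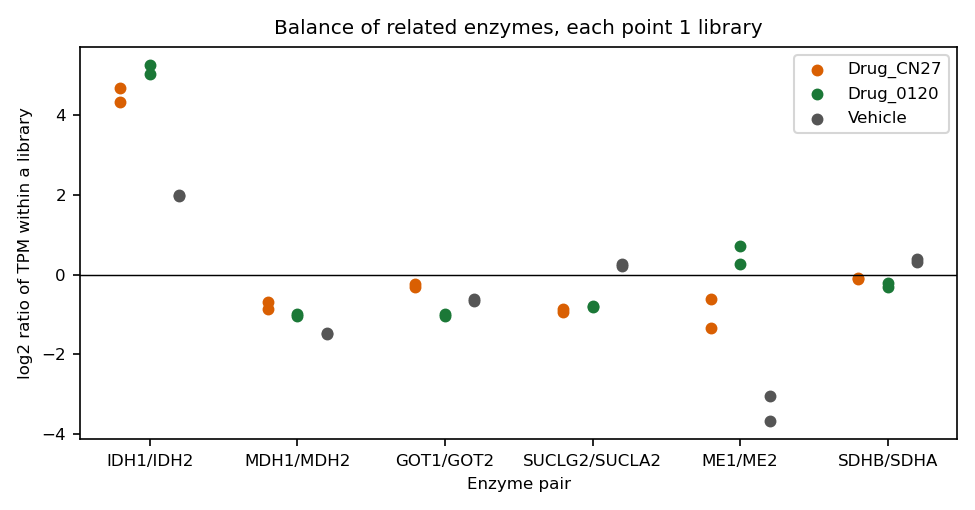
Log2 ratio of TPM of 6 enzyme pairs within each library (y axis; x axis, the pairs; points, libraries of Drug_CN27, Drug_0120 and Vehicle). IDH1/IDH2 averages 4.51 and 5.14 with Drug_CN27 and Drug_0120 against 1.99 in Vehicle, and GOT1/GOT2 lies above Vehicle with Drug_CN27 and below it with Drug_0120.

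Neighbouring steps were described from lists of genes fixed by name. Each count, here and in the next paragraphs, stands beside the shares of all tested genes called against Vehicle. These were 43.7% higher and 26.6% lower with Drug_CN27 and 36.0% higher and 45.5% lower with Drug_0120. Of 10 carriers of pyruvate, citrate, malate and glutamate across the inner mitochondrial membrane, 2 were higher and 6 lower with Drug_CN27 and 1 was higher and 9 lower with Drug_0120, each against Vehicle. These counts include SLC25A18, at 0.560 and 0.338 TPM in Vehicle, as higher with both compounds. They also include SLC25A21, at 0.302 and 0.357 TPM with Drug_0120, as lower with that compound. Each passed the filter only through groups where it is higher, so these calls support nothing. SLC25A10, the dicarboxylate carrier, averaged 35.9 ± 2.22 TPM with Drug_CN27, 21.0 ± 0.954 TPM with Drug_0120 and 131 ± 11.5 TPM in Vehicle, and SLC25A11, the oxoglutarate carrier, and MPC2, a subunit of the pyruvate carrier, also fell with both. Of 11 genes of pyruvate dehydrogenase, its kinases and its phosphatases, 3 were higher and 5 lower with Drug_CN27 and 4 were higher and 7 lower with Drug_0120. PDHB and DLAT, subunits of the complex, fell with Drug_CN27 (-0.70 ± 0.06 and -0.71 ± 0.08) and with Drug_0120 (-1.05 ± 0.06 and -1.39 ± 0.08). PDK4, a kinase that inhibits the complex, rose with both, by 2.51 ± 0.08 log2 with Drug_CN27 and 4.66 ± 0.08 with Drug_0120. Its relatives PDK2 and PDK3 fell with Drug_0120 (-2.58 ± 0.12 and -1.89 ± 0.10) and, less, with Drug_CN27 (-0.63 ± 0.12 and -0.43 ± 0.10).

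Of 5 tested genes of glutamine uptake and glutaminase, 4 were higher and none lower with Drug_CN27, and 1 was higher and 3 lower with Drug_0120. SLC1A5, a glutamine transporter, averaged 545 ± 24.7 TPM with Drug_CN27, 158 ± 3.65 TPM with Drug_0120 and 202 ± 0.0823 TPM in Vehicle, and SLC38A1 and SLC38A2 rose with Drug_CN27 (0.97 ± 0.10 and 1.08 ± 0.09). Of 5 other proline and ornithine genes, 2 were higher and 1 lower with Drug_CN27 and 1 was higher and 2 lower with Drug_0120. OAT, ornithine aminotransferase, averaged 79.1 ± 2.37 TPM with Drug_CN27, 466 ± 1.01 TPM with Drug_0120 and 68.4 ± 1.71 TPM in Vehicle, which set it apart from PYCR1 and ALDH18A1. PYCR3, the cytosolic relative of PYCR1, fell with both compounds (-1.79 ± 0.09 and -2.82 ± 0.09).

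All 4 genes listed for making acetyl-CoA from citrate or acetate and for its first step to fatty acids were called lower with Drug_0120, and 2 of them were with Drug_CN27, where 45.5% and 26.6% of all tested genes were. One of the 4, ACSS1, lay at 0.0712 and 0.112 TPM with Drug_0120 and passed the filter only through Drug_CN27 and Vehicle libraries, so its call supports nothing. ACLY, ATP citrate lyase, averaged 159 ± 6.02 TPM with Drug_CN27, 90.9 ± 2.79 TPM with Drug_0120 and 284 ± 7.95 TPM in Vehicle. Among genes of other cycle steps, DHTKD1, a relative of OGDH, fell with both (-0.63 ± 0.09 and -1.82 ± 0.09).

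Of 8 genes of lipoate synthesis and succinate dehydrogenase assembly, 1 was higher and 3 lower with Drug_CN27 and 5 were higher and 3 lower with Drug_0120. LIPT1, a lipoyl transferase, rose with both (0.67 ± 0.11 and 2.06 ± 0.11). Of 5 genes that bring propionyl-CoA or ketone bodies to succinyl-CoA, 2 were higher and none lower with Drug_CN27 and 2 were higher and 2 lower with Drug_0120, with OXCT1, which activates acetoacetate, at 0.52 ± 0.07 and -1.16 ± 0.07. Of 6 tested regulators of mitochondrial genes, 1 was higher and 3 lower with Drug_CN27 and 1 was higher and 4 lower with Drug_0120. The higher one was GABPA each time, given here because it was named with the ETS motif. Its changes were 0.31 ± 0.12 (limma adjusted p = 0.047) and 0.30 ± 0.12 (limma adjusted p = 0.0481). ESRRA, a nuclear receptor that acts on genes of oxidative metabolism, fell by 0.76 ± 0.08 and by 0.77 ± 0.08.

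The list of ATF4 and its serine, asparagine and stress targets was all higher with Drug_CN27, 12 of 12, against 43.7% of tested genes. With Drug_0120, 9 of its genes were higher and 3 lower, against 36.0% and 45.5% of tested genes. ATF4 itself, a transcription factor of the integrated stress response that is singled out here after its values were seen, averaged 1159 ± 55.9 TPM with Drug_CN27, 1216 ± 26.1 TPM with Drug_0120 and 467 ± 11.5 TPM in Vehicle. The direct difference of ATF4 between Drug_CN27 and Drug_0120 was -0.07 log2 (95% interval -0.20 to 0.06, limma adjusted p = 0.291). In that comparison 9 genes of the list were higher with Drug_CN27 and 2 lower, against 51.7% and 23.5% of tested genes. ASNS, asparagine synthetase, was among the higher ones (1.79 ± 0.05), although it rose with Drug_0120 against Vehicle too (1.88 ± 0.05). The lower ones were SESN2 (-0.53 ± 0.06) and DDIT3 (-0.31 ± 0.07).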

How the data were processed

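Polyadenylated RNA of 22Rv1 cells was measured in 3 groups of 2 libraries, grouped by their titles. The deposited table gives TPM per gene as made by the authors; STAR, StringTie and hg19 are listed in the submitters' processing notes, without versions, and annotation, strand and filters are not stated. TPM keeps no depth, so no counting interval is given. Of 20315 lines, 18 second copies of genes were left out, and 27 symbols that had become dates were restored.

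Values were tested as log2(TPM + 1) in limma 3.58.1 (R 4.3.3; trended eBayes, a single fit of the 3 groups) over the 13606 genes that reached 1 TPM in 2 or more libraries, with Benjamini-Hochberg adjustment over all of them and a threshold of 0.05. Fold changes on this scale understate those of low genes. The test was tried on simulated data. Tables were handled in Python 3.11.15 with pandas 2.3.3. Alternatives were a pseudocount of 0.1, no filter, 3 other scalings, a correction for GC content, a replicate block, fits of only the compared groups, and leaving out each library. GENCODE release 29 served for names, overlaps and GC content, and RefSeq GRCh38.p14 for promoters.

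The 32 genes and all lists were chosen with earlier results of these data known. All 32 are accounted for; those past the threshold with a log2 change of at least 0.5 against Vehicle have all 6 values printed. For other lists, at most 3 called genes per compound with the largest moderated t are named, with exceptions stated. The result of 1 list of other cycle genes is not reported here in full.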

Additional observations from a re-analysis of the deposited data

How the results depend on the processing

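Of 84 recomputed counts of the 32 genes, 77 stayed within 1.5 times the reported count. The exceptions were the 2 genes higher with Drug_0120 than Vehicle, which became 4 with quantile normalization and 5 with GC correction, and, for Drug_CN27 against Drug_0120, the 30 higher genes, which became 16 with median-of-ratios scaling, and the count of lower genes, 0 as reported, which became 2 with median-of-ratios scaling, 2 with quantile normalization, 1 with equal table sums and 3 with GC correction. Leaving out 1 library gave 11 to 11 higher and 12 to 14 lower genes for Drug_CN27 against Vehicle, 2 to 3 higher and 25 to 27 lower for Drug_0120 against Vehicle, and 27 to 30 higher and 0 to 0 lower for Drug_CN27 against Drug_0120. For single genes, 1219 recomputed changes kept direction and call, 36 gained a call, 51 lost one and 38 reversed. No log2 change of the 32 genes moved by more than 0.572. The share of all tested genes whose calls held under every alternative was not computed. Calls held under all 14 alternatives for 8 higher and 11 lower genes with Drug_CN27, and for 2 higher and 20 lower genes with Drug_0120, each against Vehicle.

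The reversed log2 changes of Drug_CN27 against Vehicle were in genes that had not passed as deposited; with GC correction DLD and MDH1 then passed as lower (adjusted p = 0.000609 and 0.0314). With median-of-ratios scaling they were -0.0945 for IDH3G, -0.15 for DLD and -0.0885 for MDH1, and with GC correction -0.25 for DLD and -0.18 for MDH1. Leaving out 1 library gave -0.0664 to 0.0452 for IDH3A and -0.0571 to 0.117 for DLD. For Drug_0120 against Vehicle, median-of-ratios scaling gave 0.0596 for DLD and 0.05004 for SUCLA2. Quantile normalization gave 0.15 for DLD, 0.16 for SUCLG1 and 0.0192 for SUCLA2, and equal table sums 0.12 for DLD, 0.0253 for SUCLG1, 0.11 for SUCLA2 and 0.0252 for SDHC. GC correction gave 0.15 for IDH3G, 0.0362 for PC and 0.12 for PCK2. Of these, IDH3G and PCK2 passed as higher (limma adjusted p = 0.0123 and 0.0323).

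For Drug_CN27 against Drug_0120, median-of-ratios scaling gave -0.14 for DLST, -0.21 for DLD, -0.12 for SDHA, -0.0361 for SDHD and -0.0524 for PC. Quantile normalization gave -0.13 for DLST, -0.13 for DLD, -0.10 for SDHA and -0.0195 for MDH2, and equal table sums -0.0134 for DLST and -0.0848 for DLD. GC correction gave -0.0303 for IDH3G, -0.0552 for DLST, -0.10 for DLD, -0.0391 for SDHA, -0.0154 for MDH2 and -0.20 for PC. The cause of these reversals was not tested. Of the recomputed differences in log2 ratio of enzyme pairs, 30 moved by more than the spread between libraries and 132 did not, and none changed sign.

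With the replicate block, the 32 genes had 11 higher and 15 lower calls for Drug_CN27 against Vehicle, 3 and 27 for Drug_0120 against Vehicle, and 30 and 0 for Drug_CN27 against Drug_0120. It added calls for PC (adjusted p = 0.0302) and ALDH18A1 (0.0489) as lower with Drug_CN27, and for DLST (0.0259) as higher and SDHC (0.0243) as lower with Drug_0120, and changed no other call. Same-numbered libraries deviated from their group means with correlations of 0.164, 0.150 and 0.110 over genes, but with only 2 numbers and no label tying them, the libraries share only a number.

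The limits are the 2 libraries per group, for which an exact test cannot go below p = 0.333, the unknown depth, and the TPM outside the table, which was larger with Drug_0120.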
